A study of Homo sapiens with 17 samples.

Results

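The odorant receptor genes OR51E1, OR51E2 and OR51F1 are 3 of the 23230 genes in the count table. They were chosen by name with their counts in all 6 RNA-seq groups already known, so their levels and changes are given as description, without a test of their own. All 3 passed the filter on low counts, OR51F1 only through the counts of LNCaP-abl, and 15550 genes in all were tested. A gene is said to be called, or to pass the threshold, where edgeR's quasi-likelihood test gave a p adjusted over all tested genes of under 0.05.

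LNCaP, an established cell line from a human prostate cancer, grows in response to androgen. Its subline LNCaP-abl, written abl below, is called androgen independent in the labels. Both lines received siCREB1, siFOXA1 (labelled siFoxA1) or siControl small interfering RNA (siRNA) at 40 nM for 3 days, with the medium at 5% charcoal-stripped serum during treatment. Before that, abl was kept in 10% charcoal-stripped serum and used at passages 62 to 64, and LNCaP was kept in 10% serum and used at passages 32 to 34. Serum history and passage number therefore cannot be told apart from the line. CREB1 is a transcription factor activated by cyclic AMP, and FOXA1 is a forkhead factor that can bind closed chromatin and make it accessible to the androgen receptor. Each of the 6 groups has 1 RNA sample with 2 count columns, taken as 2 libraries. No label says that the libraries came from separate cultures, so every spread and p-value below measures only the difference between libraries.

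Odorant receptors are G protein-coupled receptors. In the nose they raise cyclic AMP through the G protein Golf and adenylyl cyclase ADCY3, and the cyclic AMP opens ion channels. OR51E2, also called prostate-specific G protein-coupled receptor (PSGR), and OR51E1 (PSGR2) are odorant receptors best known outside the nose for expression in prostate epithelium and prostate cancer. OR51E2 responds to short-chain fatty acids and to beta-ionone, and OR51E1 to medium-chain fatty acids such as nonanoic acid. OR51F1 belongs to the same class I of odorant receptors, the families numbered 51 to 56.

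The stretches of 250 bases before the annotated starts of OR51E1 and OR51F1 are shown because these genes, which lie close together on chromosome 11, differ in base composition there. Sequences are RefSeq's on GRCh38.p14, on the strand of each gene, and capitals mark CG dinucleotides, the sites of DNA methylation. The OR51E1 stretch is chr11:4643732-4643981 on the plus strand, and the OR51F1 stretch is chr11:4769939-4770188 on the minus strand.
OR51E1: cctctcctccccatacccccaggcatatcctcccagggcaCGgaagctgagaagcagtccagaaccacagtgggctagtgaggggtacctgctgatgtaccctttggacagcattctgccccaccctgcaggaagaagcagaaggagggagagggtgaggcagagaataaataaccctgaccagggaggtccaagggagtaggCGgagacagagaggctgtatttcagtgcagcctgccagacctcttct
OR51F1: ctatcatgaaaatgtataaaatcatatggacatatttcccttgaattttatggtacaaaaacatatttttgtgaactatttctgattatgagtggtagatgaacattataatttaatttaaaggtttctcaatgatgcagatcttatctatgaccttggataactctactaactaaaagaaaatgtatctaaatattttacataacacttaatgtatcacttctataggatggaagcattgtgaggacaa
The OR51E1 stretch had 57.6% G and C and 2 CG dinucleotides. The OR51F1 stretch had 27.2% G and C and 0 CG dinucleotides. Over 35116 promoters of the same length the medians were 58% G and C and 11 CG dinucleotides, so OR51E1 matched the typical base composition with few CG, while OR51F1 was rich in A and T. Neither stretch held the full cyclic AMP response element TGACGTCA or its TGACG core, read on both strands, which 1.65% and 21.2% of all promoters held (every TGACGTCA contains a TGACG). Neither held the forkhead motif TNTTTAC or its stricter form TGTTTAC, which 9.58% and 2.98% of promoters held. The missing letters describe these windows only. OR51E2 has no entry in the promoter table.

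The libraries held between 9092597 and 37314039 reads in genes. Luminal prostate markers summed to between 2720 and 4020 CPM (counts per 1000000 reads in genes, after edgeR's TMM scaling for library composition) per library, with 8 to 10 of 10 above 1 CPM in both libraries of a group, while basal markers summed to at most 5.9 CPM. Each siRNA lowered its own target. CREB1 fell to 56.9% of siControl in siCREB1 abl cells and to 41.2% in siCREB1 LNCaP cells (adjusted p = 9.10e-06 and 5.59e-07). FOXA1 fell to 40% of siControl in siFOXA1 abl cells and to 28.5% in siFOXA1 LNCaP cells (adjusted p = 2.04e-08 and 2.15e-09). CREB1 was also lower under siFOXA1, by a log2 change of -0.44 in either line (adjusted p = 0.00114 in abl and 0.00126 in LNCaP). The first siControl library of each line stood apart by transcripts of blood cells: CSF3R, the receptor of granulocyte colony-stimulating factor, had 87 counts in the first abl and 76 in the first LNCaP siControl library, against at most 2 in each other library. The 10 blood markers summed to at most 7.67 CPM in any library. Fibroblast markers summed to between 11.2 and 22.2 CPM in abl and between 59.8 and 99.1 CPM in LNCaP, with 2 or 3 of 7 above 1 CPM, and their part in the differences between the lines was not tested. Neuroendocrine markers, 2 or 3 of 7 above 1 CPM, summed to between 102 and 106 CPM after siCREB1 and between 135 and 146 CPM after siFOXA1 in abl, against 81.7 to 86.4 CPM under siControl. In LNCaP they summed to between 106 and 109 CPM after siCREB1 and between 78.7 and 79.8 CPM after siFOXA1, against 106 to 107 CPM under siControl. The part of the blood and neuroendocrine markers in the receptor results was not tested, beyond the values given below without the first siControl libraries.

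OR51E2 took most of the odorant receptor counts of abl cells, and both siRNAs lowered it to about the same level. It stood at 677 and 679 CPM in the siCREB1 abl libraries and at 665 and 645 CPM in the siFOXA1 abl libraries, against 1910 and 2010 CPM in the siControl abl libraries. The knockdown libraries lay far below both control libraries, with no overlap. In bulk RNA, fewer cells with a transcript and less of it per cell cannot be told apart. The log2 change was -1.53 ± 0.07 (SE) for siCREB1 and -1.58 ± 0.07 for siFOXA1, which left 34.6% and 33.4% of the siControl level. Because both comparisons use the same siControl libraries, the closeness of these changes is not independent evidence.

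In LNCaP cells OR51E2 was far scarcer, and it was again lower after either siRNA. It stood at 6.52 and 7.99 CPM in siCREB1 LNCaP libraries and at 4.55 and 4.86 CPM in siFOXA1 LNCaP libraries, against 16.4 and 17.5 CPM in siControl LNCaP libraries. These levels rest on 177 and 219, 108 and 127, and 453 and 273 counts, and again no knockdown library reached a control library. The log2 change was -1.22 ± 0.10 for siCREB1 and -1.84 ± 0.10 for siFOXA1, leaving 43.1% and 28% of siControl. The effect of siCREB1 in abl minus that in LNCaP was -0.32 ± 0.12 on the log2 scale, and the same difference for siFOXA1 was 0.26 ± 0.13. Neither difference passed the threshold, and the first ranged from -0.47 to -0.17 with 1 library left out.

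The abl to LNCaP difference in OR51E2 was present under every siRNA. It was 6.55 ± 0.09 on the log2 scale (93.4-fold) under siCREB1, 7.12 ± 0.10 (139-fold) under siFOXA1 and 6.86 ± 0.09 (116-fold) under siControl. By mean level the 6 groups ran, from the highest, abl siControl, abl siCREB1, abl siFOXA1, LNCaP siControl, LNCaP siCREB1 and LNCaP siFOXA1. The means of the neighbouring abl siCREB1 and abl siFOXA1 groups were 678 ± 1.67 and 655 ± 13.8 CPM (SD, n = 2 each), close together though their libraries did not overlap. In the siControl abl libraries OR51E2 alone took 0.184% and 0.199% of all reads in genes.

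**Figure D1:**
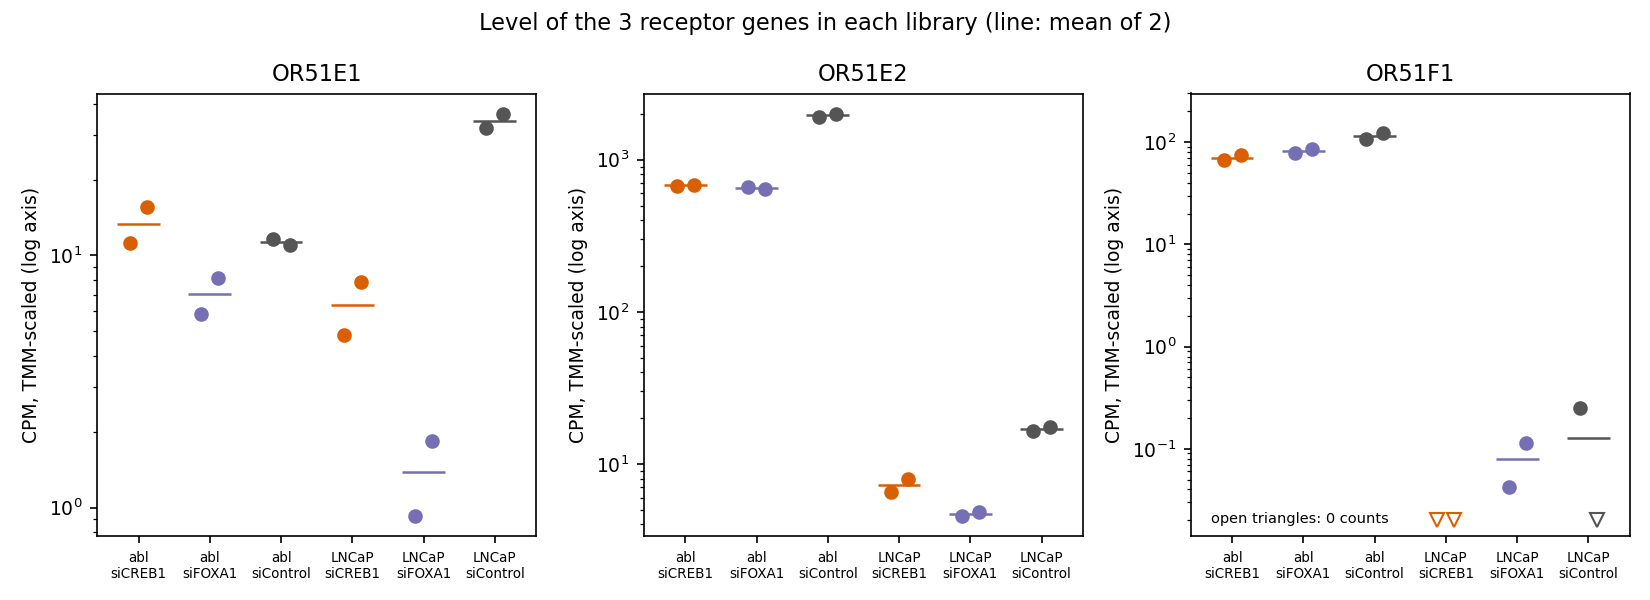
Level of OR51E1, OR51E2 and OR51F1 in each of the 12 libraries, as CPM on a log axis with a scale of its own in each panel; points are libraries, lines the means of 2, and open triangles libraries with 0 counts. OR51E2 and OR51F1 separate the lines, while the highest OR51E1 values, 32 and 36.5 CPM, are those of siControl LNCaP cells.

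OR51E1 followed another pattern: its highest group was siControl LNCaP, and its response to the siRNAs was far larger in LNCaP than in abl. In LNCaP it stood at 4.82 and 7.88 CPM after siCREB1 and at 0.927 and 1.84 CPM after siFOXA1, against 32 and 36.5 CPM in siControl cells. The siFOXA1 values rest on 22 and 48 counts. The log2 change in LNCaP was -2.42 ± 0.22 for siCREB1 and -4.60 ± 0.28 for siFOXA1, leaving 18.7% and 4.12% of the siControl level, and the libraries of the 3 groups did not overlap. The endothelial markers summed over 5 genes ran in the same order, at 12.4 to 16.8 CPM, 2.79 to 3.41 CPM and 28.8 to 31.5 CPM in siCREB1, siFOXA1 and siControl LNCaP cells, most of it VWF. Of the others, PECAM1 averaged 0.567, 0.467 and 0.81 CPM in those groups, with overlapping libraries, and CDH5 and KDR were at most 0.128 CPM. The part of such cells in the OR51E1 result was not tested.

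In abl cells OR51E1 stood at 11.2 and 15.5 CPM after siCREB1 and at 5.88 and 8.17 CPM after siFOXA1, against 11.6 and 11 CPM in siControl cells. The siCREB1 libraries overlapped the control libraries, whereas both siFOXA1 libraries lay below the control libraries. The log2 change was 0.23 ± 0.23 for siCREB1, no larger than its error, and -0.69 ± 0.24 for siFOXA1. The second value moved to -0.64 without the first siControl library of abl and to -0.48 without the first siFOXA1 library of abl, and it did not pass the threshold in either fit.

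The direction of the difference between the lines therefore turned with the siRNA. OR51E1 was higher in abl than in LNCaP by 1.07 ± 0.23 on the log2 scale under siCREB1 and by 2.33 ± 0.32 under siFOXA1, but was lower in abl under siControl, at -1.58 ± 0.22. The siCREB1 effect in abl minus that in LNCaP was 2.65 ± 0.32, and the same difference for siFOXA1 was 3.91 ± 0.39. By mean level the order was LNCaP siControl, abl siCREB1, abl siControl, abl siFOXA1, LNCaP siCREB1 and LNCaP siFOXA1. Within that order abl siCREB1 overlapped abl siControl, and abl siFOXA1 overlapped LNCaP siCREB1.

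**Figure D2:**
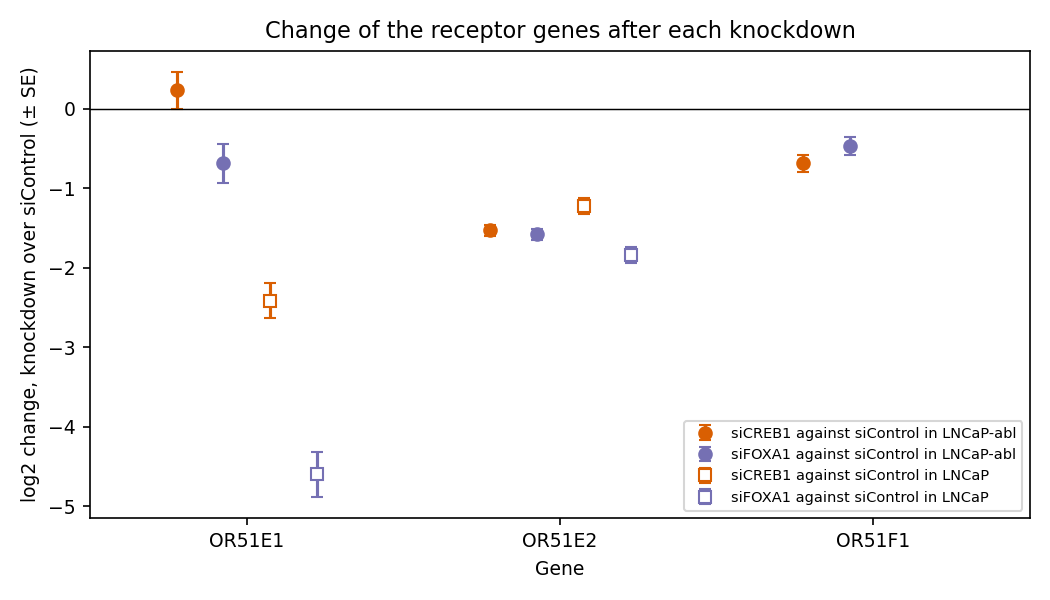
log2 change of each receptor gene after siCREB1 (orange) or siFOXA1 (purple) over siControl, with filled circles for abl, open squares for LNCaP and bars of 1 SE either side; OR51F1 in LNCaP is left out because it had at most 7 counts per library. OR51E2 lies between -1.84 and -1.22 in all 4 comparisons, whereas OR51E1 runs from 0.23 in siCREB1 abl cells to -4.60 in siFOXA1 LNCaP cells.

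OR51F1 was close to a present or absent difference between the lines. It stood at 67.3 and 74.2 CPM in siCREB1 abl libraries and at 77.9 and 86.6 CPM in siFOXA1 abl libraries, against 108 and 122 CPM in siControl abl libraries. Both knockdown groups lay below both control libraries. The log2 change was -0.69 ± 0.11 for siCREB1 and -0.47 ± 0.11 for siFOXA1, leaving 62% and 72.1% of siControl, a smaller change than that of OR51E2 in the same cells.

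In LNCaP cells OR51F1 had 0 and 0 counts after siCREB1 and 1 and 3 counts after siFOXA1, against 7 and 0 counts in siControl cells. All 7 control counts lay in the first siControl library, the one with the blood cell transcripts. With 0 counts, siCREB1 LNCaP cells were 2.94-fold lower than siControl, taking 3 counts over the group as the floor. That value leaves out the counting error of the 7 control counts, so it is not a lower bound. Without the first siControl library both groups had 0 counts and no fold can be given. The siFOXA1 level was 0.496 times siControl, with an exact 95% interval of 0.107 to 1.95 from counting error, so no change was detectable at this depth. Without the first siControl library the comparison is 1 and 3 counts against 0, so its direction rests on that library. Against LNCaP, abl was at least 1290-fold higher under siCREB1 by the same floor. The ratio of abl to LNCaP was 1030 under siFOXA1 (95% interval 401 to 3770) and 684 under siControl (95% interval 332 to 1700). Without the first siControl LNCaP library, which holds all 7 counts, abl was at least 575-fold higher under siControl by a floor of 3 counts. These intervals cover counting error only.

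Since OR51F1 changed less than OR51E2 in abl, its counts relative to those of OR51E2 were higher after either knockdown. For each 100 OR51E2 counts there were 9.94 and 10.9 OR51F1 counts in siCREB1 abl libraries and 11.7 and 13.4 in siFOXA1 abl libraries, against 5.64 and 6.04 in siControl abl libraries. LNCaP libraries had between 0 and 2.36. The ratio compares libraries, not the genes, since the counts were not divided by transcript length.

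**Figure D3:**
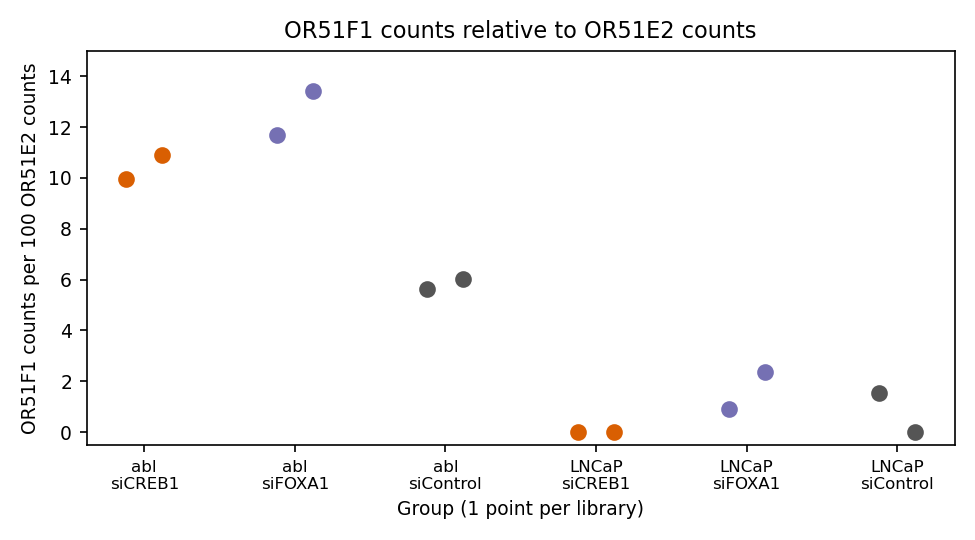
OR51F1 counts for each 100 OR51E2 counts in the same library, 1 point per library. The 4 knockdown abl libraries lie between 9.94 and 13.4, above the siControl abl libraries at 5.64 and 6.04, and the LNCaP libraries lie at or below 2.36.

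Many genes changed in these data, which sets the background for the receptor genes and for the gene lists below. After siCREB1 in abl, 2 of the 3 receptor genes were called lower, where 23.7% of all tested genes were called lower and 27.5% higher. After siFOXA1 in abl, 3 of 3 were called lower, where 26.5% of all genes were called lower and 29.9% higher. After siCREB1 in LNCaP, 3 of 3 were called lower, where 19.8% of all genes were called lower and 17.8% higher; OR51F1 rested on the 7 counts above and was not called without the library that holds them, nor without either siCREB1 library. After siFOXA1 in LNCaP, 2 of 3 were called lower, where 25.5% of all genes were called lower and 24.4% higher. Between the lines under siControl, 2 of 3 were called higher and 1 lower in abl, where 30.5% of all genes were called higher and 33.1% lower. Under siCREB1 and siFOXA1, 3 of 3 were called higher in abl, where 31.6% and 30.2% of all genes were. The effect in abl minus that in LNCaP was called above 0 for OR51E1 alone of the 3, for siCREB1 and for siFOXA1, where 14.8% and 17.9% of all genes were. The receptors were chosen with these values known, so nothing is read from their counts.

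The authors' deposited table gives similar sizes. For OR51E2 the authors' deposited table lists a log2 change of -1.53 after siCREB1 and -1.58 after siFOXA1 in abl, and -1.20 and -1.83 in LNCaP. For OR51E1 the authors' deposited table lists -0.68 after siFOXA1 in abl, and -2.40 and -4.59 after siCREB1 and siFOXA1 in LNCaP, with no row for siCREB1 in abl. For OR51F1 the authors' deposited table lists -0.69 and -0.46 in abl and has no row in either LNCaP comparison.

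Other odorant receptors were nearly silent. Of 390 odorant receptor symbols in the count table, 280 had 0 counts in all 12 libraries and 13 passed the filter. Among the 53 class I receptors the 3 genes described here were the ones that passed, and no other class I receptor had over 9 counts in a library. Of 22 symbols of family OR51, 12 had 0 counts throughout. OR51E1, OR51E2 and OR51F1 together made up between 98.15% and 99.26% of the odorant receptor counts of abl libraries, counts being taken without regard to length. In LNCaP their share was 52.92% and 56.42% after siCREB1 and 34.93% and 44.06% after siFOXA1, against 85.23% and 82.07% in siControl cells.

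The 10 other odorant receptor genes that passed, the pseudogenes OR7E37P and OR7E91P among them, had at most 113 counts in a library. Reads that match several near-identical family members may have been left out or placed with the wrong gene, so their values are uncertain. OR2B6, a class II receptor, fell in abl after either siRNA as OR51E2 did. It had 4 and 4 counts after siCREB1 and 7 and 4 after siFOXA1, against 40 and 15 in siControl abl cells, with log2 changes of -2.85 ± 0.47 and -2.34 ± 0.44 (adjusted p = 0.000175 and 0.000426). In LNCaP it went the other way after siFOXA1, with 10 and 11 counts against 3 and 3 in siControl cells, a log2 change of 1.56 ± 0.60 (adjusted p = 0.0443). OR7E24 fell in siFOXA1 abl cells by 1.17 ± 0.38 on the log2 scale (adjusted p = 0.017). No other of the 10 passed the test in a knockdown comparison. Under siControl 5 of the 10 were called higher in abl than in LNCaP, where 30.5% of all tested genes were. Among the 5 were OR2B6 (log2 3.14 ± 0.50, adjusted p = 8.27e-05) and OR8G5 (log2 2.50 ± 0.52, adjusted p = 0.000779). OR8G2, also among the 5, passed the filter on low counts only through abl.

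On chromosome 11, in RefSeq's order, OR51E1 and OR51E2 are next to each other, and MMP26, which codes for the matrix metalloproteinase matrilysin-2, lies between OR51E2 and OR51F1. Within 5 genes on either side of the receptors there are 11 neighbours, most of them odorant receptors, and TRIM68 was the one neighbour that passed the filter. The other 10 had at most 10 counts in any library. OR51F1 lies within the annotated span of MMP26, and OR51E2 overlaps that of OR51C1, which has no row in the count table. The strand setting of the counting is not given in the sources used here, so reads of overlapping genes may not be told apart. MMP26 itself had at most 10 counts in a library.

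**Figure D4:**
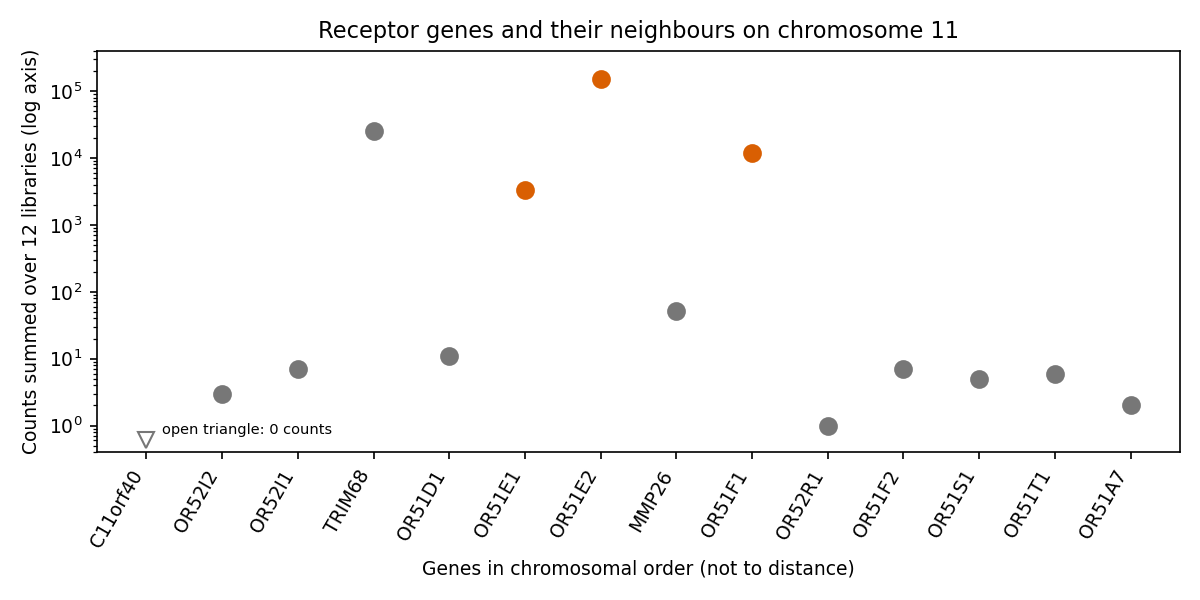
Counts summed over the 12 libraries, on a log axis, for the 14 genes of the run on chromosome 11 in their order along it, with the 3 receptor genes in orange, the neighbours in grey and an open triangle for a gene with 0 counts. TRIM68 is the one neighbour with counts in the range of the receptor genes, and the counts are not divided by length.

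TRIM68, a ubiquitin ligase described as a cofactor of the androgen receptor, lies on the OR51E1 side of the run and changed with a line dependence of the same sign as OR51E1. In abl it stood at 83.9 and 95.8 CPM after siCREB1 and at 49 and 47.7 CPM after siFOXA1, against 68.6 and 57.2 CPM in siControl cells. It rose after siCREB1 by 0.49 ± 0.10 on the log2 scale (adjusted p = 0.000937) and fell after siFOXA1 by 0.40 ± 0.10 (adjusted p = 0.00434), and the fall was -0.23 and missed the threshold without the first siControl library of abl (adjusted p = 0.147). In LNCaP it stood at 107 and 123 CPM after siCREB1 and at 45.9 and 52.5 CPM after siFOXA1, against 157 and 165 CPM in siControl cells. The log2 changes there were -0.48 ± 0.10 and -1.71 ± 0.10 (adjusted p = 0.00141 and 1.51e-08). Under siControl TRIM68 was lower in abl than in LNCaP by a log2 difference of -1.34 ± 0.10 (adjusted p = 4.35e-08), the same direction as OR51E1 and the opposite of OR51E2. Its line difference did not turn as that of OR51E1 did. TRIM68 was still lower in abl under siCREB1 (log2 -0.36 ± 0.10, adjusted p = 0.00486) and was not called under siFOXA1 (log2 -0.03 ± 0.10). OR51E1 was higher in abl there, by 1.07 and 2.33. The effect in abl minus that in LNCaP was 0.98 ± 0.14 for siCREB1 (adjusted p = 0.000197) and 1.31 ± 0.14 for siFOXA1 (adjusted p = 1.33e-05).

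The genes that carry the odorant signal in the nose were only partly present. Of 13 genes of that pathway 8 were tested. The channel subunits CNGA2, CNGA4 and CNGB1, the phosphodiesterase PDE1C and the olfactory marker protein OMP had at most 12 counts in a library and were not. In abl, 2 rose and 2 fell after siCREB1, and 2 rose and 1 fell after siFOXA1, with a median log2 change of 0.02 and 0.01 against 0.03 and 0.03 over all genes. In LNCaP, 2 fell after siCREB1 and 4 fell after siFOXA1, with a median of 0.02 and -0.28 against 0 and -0.01. ADCY3, the cyclase of the nose, fell to 77.4% and 51.4% of siControl in abl after siCREB1 and siFOXA1 (adjusted p = 0.00376 and 1.11e-06), and to 77.3% in LNCaP after siFOXA1 (adjusted p = 0.00688). It was higher in abl than in LNCaP under siControl by 1.12 ± 0.10 on the log2 scale (adjusted p = 1.69e-07). GNG13, a G protein gamma subunit, was lower in abl by a log2 difference of -4.22 ± 0.20 (adjusted p = 2.94e-10), and the calcium-activated chloride channel ANO2 had 0 and 0 counts in abl against 44 and 15 in LNCaP under siControl. In all, 1 of the 8 was higher and 4 were lower in abl under siControl, with a median of -0.45 against -0.02 over all genes. ANO2 is among the 4 and passed the filter on low counts only through LNCaP, so its counts are a description.

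All 7 genes described downstream of OR51E2 in prostate cells were tested. After siCREB1 4 rose and 1 fell in abl and 2 rose and 1 fell in LNCaP; after siFOXA1 3 rose and 3 fell in abl and 1 rose and 3 fell in LNCaP. NDRG1, a stress-responsive gene linked to differentiation, was the one that fell in all 4 comparisons, as OR51E2 did. It was left at 51.5% and 58.7% of siControl in abl and at 58.6% and 51.6% in LNCaP after siCREB1 and siFOXA1 (adjusted p from 6.69e-07 to 1.68e-05). TRPV6, the calcium channel described to open on OR51E2 activation, rose in abl instead. It stood at 212 and 172 CPM after siCREB1 and at 465 and 384 CPM after siFOXA1, against 105 and 97.8 CPM in siControl abl cells, with log2 changes of 0.91 ± 0.10 and 2.06 ± 0.11 (adjusted p = 6.50e-06 and 2.47e-09). Under siControl TRPV6 was higher in abl than in LNCaP (log2 1.98 ± 0.11, adjusted p = 2.93e-09), whereas the kinase SRC, at 4.67 and 5.13 CPM in abl against 79.4 and 76.3 CPM in LNCaP, was lower (log2 -4.02 ± 0.10, adjusted p = 3.50e-13). The median log2 changes of the 7 were 0.19 and 0.15 in abl and 0.10 and -0.19 in LNCaP after siCREB1 and siFOXA1, and 2 were higher and 1 lower in abl than in LNCaP under siControl, with a median of -0.03.

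Receptor trafficking and desensitisation genes moved in both directions. Of 14, 11 were tested, and RTP1, RTP2 and RTP3, which help odorant receptors reach the cell surface, had at most 1 count in a library. After siCREB1 4 rose and 4 fell in abl and 2 rose and 3 fell in LNCaP; after siFOXA1 4 rose and 4 fell in abl and 2 rose and 4 fell in LNCaP. RTP4, of the same family and known as interferon-inducible, had 18 and 7 counts in siFOXA1 abl cells against 1 and 0 in siControl abl cells. In LNCaP it had 44 and 61 counts after siFOXA1 against 0 and 0 in siControl cells. It passed the filter on low counts only through its siFOXA1 libraries, so its counts are a description without a p-value. The numbers of called genes above include it. REEP4 fell in abl, to 56.7% of siControl after siCREB1 and to 39.8% after siFOXA1 (adjusted p = 5.43e-06 and 5.17e-08). The median log2 changes of the 11 were 0.13 and 0.06 in abl and 0.05 and -0.18 in LNCaP after siCREB1 and siFOXA1, and -0.07 between abl and LNCaP under siControl, where 3 were higher and 5 lower in abl.

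Of 9 adenylyl cyclases, ADCY3 included, 6 were tested. After siCREB1 2 rose and 1 fell in abl, and 1 rose and 1 fell in LNCaP. ADCY1 differed in direction between the lines after siCREB1: it rose by 0.92 ± 0.14 on the log2 scale in abl and fell by 0.42 ± 0.11 in LNCaP (adjusted p = 8.94e-05 and 0.0097), with a difference of 1.35 ± 0.18 (adjusted p = 0.000132). After siFOXA1 3 rose and 2 fell in abl, and 3 fell in LNCaP, where ADCY1 was left at 26% of siControl (adjusted p = 3.12e-08). The median log2 changes of the cyclases were 0.09 and -0.18 in abl and 0.07 and -0.33 in LNCaP after siCREB1 and siFOXA1, and -0.22 between abl and LNCaP under siControl, where 2 were higher and 3 lower in abl.

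Of 22 other receptors that couple to the stimulatory G protein 11 were tested. After siCREB1 5 rose and 1 fell in abl, led by the beta-1 adrenergic receptor ADRB1 (log2 2.28 ± 0.18, adjusted p = 2.75e-07), and 0 were called in LNCaP by edgeR's quasi-likelihood test, where 2 had an unadjusted p under 0.05 and DESeq2 called 0. After siFOXA1 3 rose and 1 fell in abl and 4 rose and 3 fell in LNCaP, and the serotonin receptor HTR7 rose in both lines (log2 1.84 ± 0.22 in abl and 2.43 ± 0.54 in LNCaP, adjusted p = 6.69e-06 and 0.00212). The HTR7 value in LNCaP rests on few counts, 27 and 24 after siFOXA1 against 4 and 4 in siControl cells. The median log2 changes were 0.90 and -0.01 in abl and 0.10 and 0.02 in LNCaP, and -0.25 between abl and LNCaP under siControl, where 3 were higher and 5 lower in abl. The 5 include HTR6 and VIPR2, which had at most 2 and at most 8 counts in an abl library. Both passed the filter on low counts only through LNCaP, so their part in that number is a description.

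Prostate-enriched genes moved in both directions. Of 14 tested, 7 rose and 1 fell in abl after siCREB1, 3 rose and 5 fell in abl after siFOXA1, 3 rose and 3 fell in LNCaP after siCREB1, and 4 rose and 6 fell in LNCaP after siFOXA1. In siCREB1 abl cells, where OR51E2 was at 34.6% of siControl, the androgen-regulated protease TMPRSS2 rose by 1.01 ± 0.09 on the log2 scale (adjusted p = 5.96e-07). After siFOXA1 the transcription factor SPDEF was left at 21% of siControl in abl and at 20.5% in LNCaP (adjusted p = 9.91e-09 and 1.30e-08). ACPP, prostatic acid phosphatase, was the prostate-enriched gene with the pattern nearest to OR51E1: it was left at 41.1% and 4.86% of siControl in LNCaP after siCREB1 and siFOXA1 (adjusted p = 7.60e-06 and 1.37e-10), and was lower in abl than in LNCaP under siControl by a log2 difference of -1.55 ± 0.13 (adjusted p = 1.76e-07). KLK3, prostate-specific antigen, was lower in abl too (log2 -7.84 ± 0.38, adjusted p = 4.18e-10), with 13 and 1 counts in the siControl abl libraries. Unlike OR51E1, KLK3 was not called after siFOXA1 in LNCaP (log2 0.05 ± 0.18). The median log2 changes of the 14 were 0.50 and -0.08 in abl and -0.07 and -0.13 in LNCaP after siCREB1 and siFOXA1, and -0.19 between abl and LNCaP under siControl, where 2 were higher and 5 lower in abl.

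Likeness of pattern was measured as Pearson's correlation of log2 CPM over the 12 libraries, among 12291 genes. The libraries fall into 2 lines, so a high value can come from the line difference alone, and the values are descriptive. Nearest to OR51E1 were PDP2 (0.956), UBE4B (0.940), DHX57 (0.939), SOBP (0.933) and ACPP (0.932). Nearest to OR51E2 were C3orf63 and JRK (0.993 each) and GALC, PTPN13 and WNT5A (0.992 each). WNT5A, a secreted Wnt ligand, stood at 286 and 312 CPM in siCREB1 and 264 and 270 CPM in siFOXA1 abl libraries, against 384 and 374 CPM in siControl abl libraries, and at 5.93 and 5.33 CPM in siCREB1 and 3.08 and 3.67 CPM in siFOXA1 LNCaP libraries, against 16.4 and 13.2 CPM in siControl LNCaP libraries. It thus had the order of groups given above for OR51E2. Nearest to OR51F1 were FAM55A (0.994), DOCK10 (0.993) and PHACTR1, HYLS1 and SYK (0.992 each). OR51E2 and OR51F1 had a correlation of 0.978 with each other, whereas OR51E1 had 0.363 with OR51E2 and 0.222 with OR51F1. Spearman's rank correlations for these pairs were 0.796, 0.580 and 0.197. By Spearman's rank correlation, 2 of the 5 genes named for OR51E1 stayed among the nearest 5, and 0 of those named for OR51E2 or OR51F1 did.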

How the data were processed

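Whole reads per gene had been counted by the authors. Per the submitters' processing notes the tools were CASAVA 1.8, TopHat2 2.0.8, Bowtie2 2.1.0, HTSeq 0.5.3p9 and edgeR 3.0.6, with reads placed on hg19. No source used here gives the gene annotation or the strand setting of the counting. Deposited tables held raw counts for the 6 RNA samples, with 2 columns each, and the authors' log2 fold changes and p-values. The control columns of each line stand in its control table and again in both knockdown tables; 8 of 8 repeated columns were identical and were counted once. Between 54.85% and 58.25% of reads were listed as assigned to no gene and were left out.

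The counts were fitted with edgeR 4.0.16 in R 4.3.3 (quasi-likelihood test, TMM scaling, filterByExpr, 1 mean per group over all 12 libraries, 6 residual degrees of freedom), and p-values were adjusted by Benjamini and Hochberg's method over 15550 genes. A gene was called at an adjusted p under 0.05. The fit was tested on simulated data. CPM are from the TMM-scaled library sizes, and values with ± are SE unless marked SD. Libraries of a group differed by more than sampling noise, by a chi-square per degree of freedom of 4.35 to 10.19. Correlations used log2 CPM with a prior count of 2, for genes with a mean of at least 1.

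The receptor genes and the gene lists were chosen with earlier results of these data known. Named list genes are called members with the largest change, at most 3 per list and comparison. ADRBK1, ACPP and other older symbols are kept as in the count table. The ChIP-seq peak lists were not used, since no hg19 annotation was given. Alternatives were another scaling, no filter, DESeq2 1.42.0, fits of the compared groups alone, a replicate block and each library left out.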

Additional observations from a re-analysis of the deposited data

Results flagged for a closer look

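Several genes were picked out because the effect of an siRNA differed between the lines by edgeR's test of that difference. Of the 15550 genes tested, 3969 passed that test for siCREB1 and 5068 for siFOXA1. Each value is the log2 effect in abl minus that in LNCaP. From each gene list only the gene with the largest absolute difference is named for each siRNA. Others that passed are left out, such as ADCY3 (-0.59), TRPM8 (-3.20) and REEP1 (1.29) for siFOXA1. OR51E1 differed by 2.65 for siCREB1 and by 3.91 for siFOXA1; its values are a description, since it was chosen with them known. Its neighbour TRIM68 differed by 0.98 for siCREB1 and by 1.31 for siFOXA1. OR2B6 differed by -3.91 for siFOXA1, on at most 40 counts per library.

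The knockdowns themselves differed in depth relative to siControl: CREB1 differed by 0.47 for siCREB1 and FOXA1 by 0.49 for siFOXA1. On that scale both targets were lowered further in LNCaP. The FOXA1 left under siFOXA1 was nearly equal, at means of 212 CPM in abl and 213 CPM in LNCaP, from 530 and 747 CPM under siControl. The CREB1 left under siCREB1 averaged 45.1 CPM in abl and 34.3 CPM in LNCaP, from 79.2 and 83.2 CPM. The part of these differences in the receptor results was not tested. Of the cyclic AMP genes, ADCY3 differed by -0.55 for siCREB1, ADCY1 by 1.35 for siCREB1 and 1.30 for siFOXA1, and GNG13 by 1.43 for siFOXA1. REEP1 differed by 0.56 for siCREB1 and REEP4 by -1.37 for siFOXA1. TRPV6 differed by 0.81 for siCREB1 and 2.10 for siFOXA1. Of the receptors coupled to the stimulatory G protein, ADRB1 differed by 1.78 for siCREB1 and ADORA2B by 1.26 for siFOXA1. Of the prostate-enriched genes, KLK3 differed by 2.57 for siCREB1, on at most 15 counts per abl library, and ACPP by 3.73 for siFOXA1.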

How the results depend on the processing

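OR51E2 kept its direction and its call in all 4 knockdown comparisons and all 3 line comparisons under every alternative run. Of the log2 changes of OR51E1, that after siFOXA1 in abl ranged from -0.94 to -0.48 with 1 library left out. It was -0.64 and did not pass the threshold with the first siControl libraries of both lines left out, an alternative chosen after seeing the data. OR51F1 after siCREB1 in LNCaP ranged from -5.66 to 0.00 with 1 library left out and was 0.00 without both first siControl libraries, the LNCaP one of which holds its control counts; after siFOXA1 in LNCaP its fitted change, not called in any fit, was -1.79 at the lowest and turned positive without the first LNCaP siControl library. Between abl and LNCaP under siControl it ranged from 8.78 to 14.38, the upper end being the fit without that library. TRIM68 after siFOXA1 in abl ranged from -0.51 to -0.23, and was -0.23 without both first siControl libraries; between abl and LNCaP under siCREB1 it ranged from -0.45 to -0.25. For the line difference in the siCREB1 effect, 2 receptor genes were called, not 1, with DESeq2's size factors, with no filter on low counts and by DESeq2, and 1 to 2 with 1 library left out. The added gene was OR51E2 at -0.36 with the size factors and at -0.36 by DESeq2 (range -0.47 to -0.17 with 1 library left out), or OR51F1 at 4.31 with no filter (range -0.68 to 4.97). List genes called for that difference numbered 21, and 12 to 19 with 1 library left out. Over all 15550 tested genes 3969 were called, and 2855 to 4009 with 1 library left out. The lists held 8, 7, 11, 6, 11 and 14 tested genes in the order given above, with ADCY3 in both the nose pathway and the cyclases. With no filter 110 odorant receptor genes entered the test. No scaling moved the median of all genes by over 0.04.

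No label ties same-numbered libraries to a shared culture or day. The correlation of their deviations from the group mean ran from -0.11 to 0.37 over the pairs of groups, highest between the siControl groups of abl and LNCaP, whose first libraries both hold CSF3R. With the number as a replicate block, OR51E2 changed by -1.53 and -1.58 in abl and by -1.22 and -1.84 in LNCaP, OR51E1 by 0.15 and -0.77 in abl and by -2.45 and -4.63 in LNCaP, and OR51F1 by -0.70 and -0.48 in abl, after siCREB1 and siFOXA1, and no receptor gene changed its call. The block moved genes called after siCREB1 in abl to 8115, from 7962.

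The peak alternatives were not run. Depth limits OR51F1 in LNCaP, where a library had at most 7 counts, and the other odorant receptors.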
